A study of Mus musculus with 48 samples.

Results

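Taco1, Ccdc57, Vti1a, Zdhhc6, Acbd6, Mtbp, Zfp11, Slc4a1ap, Adat2 and Pex3 are 10 mouse genes whose promoters carry the zinc finger protein ZBTB11 and hold H3K27me3 in embryonic stem cells that lack it. They were taken from the 21887 protein-coding genes of the annotation because of strong H3K27me3 gain in Zbtb11KO, so that gain and the ZBTB11 binding beside it describe the choice and support nothing. Vti1a and Zdhhc6 share 1 promoter, and so do Adat2 and Pex3, which leaves 8 promoters. The 48 ChIP-seq libraries of the series form 24 groups of 2 by target, genotype and culture. The wildtype cells are the Ainv15 line with iCre. The Zbtb11KO cells are Ainv15 cells with the Zbtb11 deletion and an inducible Zbtb11-HA copy, and the Zfp131KO cells are built likewise with Zfp131-HA. The double knockout carries both deletions, with inducible Zbtb11-HA and Zfp131-V5. Histone marks, NELF, CHD4, SIN3A, SETD1A and serine 5 phosphorylated RNA polymerase II were measured after 3 days without doxycycline in LIF medium from which the 2i inhibitors were withdrawn, and the HA tag after 3 days with doxycycline with 2i and LIF, so that HA events show the returned factor in another medium. Each genotype is 1 line, so a knockout and a line difference cannot be told apart, and no label states whether the replicates came from separate cultures, so the p-values may measure technical spread.

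H3K27me3 is laid down by Polycomb repressive complex 2 and is known in embryonic stem cells from the silent promoters of developmental regulators. H3K4me3 marks the starts of active or poised genes, and H3K27ac sits on the same lysine as H3K27me3, so that a single histone tail carries one or the other. NELF holds RNA polymerase II in a pause just after the start, SIN3A and CHD4 belong to histone deacetylase complexes, and SETD1A is a methyltransferase for H3K4. The 10 genes are not known as developmental regulators. Taco1 activates mitochondrial translation of a cytochrome c oxidase subunit, Adat2 is the catalytic subunit of an adenosine deaminase for tRNA, and Pex3 is needed to build the peroxisome membrane. Vti1a is a SNARE of the trans-Golgi network and endosomes, Zdhhc6 attaches palmitate to proteins in the endoplasmic reticulum, and Acbd6 binds acyl-CoA. Mtbp is named for binding MDM2 and acts in the firing of replication origins, Ccdc57 encodes a coiled-coil protein of the centrosome, Slc4a1ap encodes kanadaptin, and Zfp11 encodes a zinc finger protein.

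The promoters are shown by short stretches around the letters CGGAAC, or GGAAC where the longer string was absent, because these letters recurred beside the ZBTB11 events. The letters were chosen after the sequences were seen. The stretches are from RefSeq (GRCm38.p6, the assembly of mm10), which gave a window of 250 bases before to 50 after the start for 9 of the 10 genes, and capitals mark the letters on the strand of the gene.
Taco1 (chr11:106065976-106066005, plus strand): accgcgaggcagCGGAACcaactttgcaga
Ccdc57 (chr11:120932935-120932964, minus strand): cagcgcacaggtCGGAACtcttttgtgttg
Vti1a (chr19:55315846-55315875, plus strand): gcccgggctcagCGGAACagattttctcct
Acbd6 (chr1:155558041-155558070, plus strand): gttaggaaacggCGGAACctttgtcctcag
Zfp11 (chr5:129670135-129670164, minus strand): acccagatacccCGGAACggaagcctgcgg
Slc4a1ap (chr5:31526881-31526910, plus strand): agtcttgaaagaGGAACtccaacatttctg
Pex3 (chr10:13553197-13553226, minus strand): aagagaggacagCGGAACgcggcgggagcg

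Zfp11 held the letters most often, and 110 bases upstream of its start, which overlap no annotated gene, are shown with GGAAC in capitals.
Zfp11 (chr5:129670109-129670218, minus strand): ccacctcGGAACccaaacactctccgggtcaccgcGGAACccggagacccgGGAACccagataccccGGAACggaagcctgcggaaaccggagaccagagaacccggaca

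CGGAAC, read on both strands, was present in 6 of 9 member windows (those of Taco1, Ccdc57, Vti1a, Acbd6, Zfp11 and Pex3) against 7.97% of 32851 promoter windows, and GGAAC, which is contained in it, in 7 of 9 against 46.6%. The distance from the letters shown to the nearest ZBTB11 event was 4 bp at Slc4a1ap, 6 bp at Taco1, 7 bp at Ccdc57, 10 bp at Zfp11, 30 bp at Pex3, 45 bp at Acbd6 and 60 bp at Vti1a, where that event was a weak one of 222.5 reads. At Taco1 too the nearest event was not the strongest (552.7 reads). Where a window held several copies upstream of the start, the copy nearest to an event is shown, so these distances are partly set by that choice. Other upstream copies lay 60 bp from an event at Slc4a1ap, 49 bp at Ccdc57, and 22 and 50 bp at Zfp11. Over all ZBTB11 events with 50 bases on either side inside a promoter window, CGGAAC lay within those bases at 49.6% of 266 events with 1000 or more reads. The share was 17.0% of 294 events with 300 to under 1000 reads, 12.3% of 650 with 100 to under 300 reads and 6.37% of 675 under 100 reads. Without a split by reads, CGGAAC was present at 16.2% of 1885 ZBTB11 events, 5.80% of 690 ZFP131 events and 4.77% of 4511 wildtype SIN3A events. The members' own ZBTB11 events, beside which the letters were chosen, are not left out of these shares. The ETS letters CCGGAAG were also common at strong ZBTB11 events, at 32.3%, 37.4%, 22.8% and 8.15% of the same classes in falling order of reads. They were at 21.2% of the 1885 ZBTB11 events, 13.5% of the ZFP131 events and 4.92% of the SIN3A events. These letters, which hold CGGAA but not CGGAAC, were present in 2 of 9 member windows (Vti1a and Zdhhc6, the same site) against 8.86% of all. The SP letters GGGCGGG were in 2 (Taco1 and Ccdc57) against 25.6%, and the NFY letters CCAAT in 1 (Adat2) against 37.4%. The letters of NRF1 (GCGCATGC), YY1 (AAGATGGC), the E-box (CACGTG) and CRE (TGACGTCA) were in none, against 2.71%, 2.75%, 7.15% and 1.79%. Member windows held a median of 21 CpG (6 to 36), where all promoter windows held a median of 7. CGGAAC itself holds a CpG, and its share among promoters with as many CpG was not counted. A match describes the letters and is not a test of binding.

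Taco1 lies on chromosome 11 from 106066057 to 106074035, with the lncRNA Taco1os just before its start. Ccdc57 lies on chromosome 11 from 120826529 to 120932926 and its start overlaps the lncRNA A430102A20Rik. Vti1a (chromosome 19, 55316030 to 55627461) and Zdhhc6 (55298216 to 55316036) run apart from starts that overlap. Acbd6 lies on chromosome 1 from 155558099 to 155687474 and Zfp11 on chromosome 5 from 129654595 to 129670088, each with no other annotated gene end within 1 kb of the start. Mtbp (chromosome 15, 55557404 to 55626423) faces Mrpl13, a mitochondrial ribosomal protein gene that ends at 55557312, and Slc4a1ap (chromosome 5, 31526781 to 31561755) faces Supt7l, a SAGA complex gene that ends at 31526762. Adat2 (chromosome 10, 13552907 to 13563376) and Pex3 (13523842 to 13553142) overlap at their starts. Signals at shared promoters cannot be given to one gene of the pair.

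In ZBTB11-HA cells, the 8 promoters held 3 to 5 ZBTB11 events each, and the reads summed over events within 1 kb of the gene ends ran from 2775.2 at Acbd6 to 4007.2 at Vti1a and Zdhhc6. The strongest single event held 2710.4 reads at Ccdc57, 2458.1 at Adat2 and Pex3, 2252.3 at Mtbp and 1522.8 at Zfp11, where a second of 1146.7 reads lay on the other side of the start. The distance of the strongest event from the start site ran from 20 bp at Acbd6 to 274 bp at Adat2, whose partner Pex3 starts 39 bp from the same event. ZFP131-HA events were listed at 3 of 8 promoters and were weak. Vti1a and Zdhhc6 had 125.0 reads over a pair of events, Ccdc57 had 47.0 reads and Acbd6 had 33.7 reads, and at a stricter p under 1e-05 only Vti1a and Zdhhc6 kept events. By comparison 10.2% of all genes had a ZFP131 event and 35.9% a ZBTB11 event.

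In the wildtype cells the 10 genes had marked, polymerase-bearing promoters. Among 13657 genes with at least 50 reads in listed H3K4me3 domains, they lay from the 34.2 (Ccdc57, 1472 reads) to the 80.7 percentile (Mtbp, 4007 reads). All 10 had domains of serine 5 phosphorylated polymerase, where 83.8% of these 13657 genes did. Their reads were 240 to 738, with a median at the 53.3 percentile. SETD1A events were listed at all 10 and at 69.4% of the same 13657 genes. Members ran from 174.3 reads at Zfp11 to 564.9 at Vti1a and Zdhhc6, with a median at the 74.6 percentile. SIN3A reads were ordinary, with a median at the 49.7 percentile. CHD4 events were listed at 3 of 10, Ccdc57 (69.6 reads) and Vti1a and Zdhhc6 (160.9 reads), where 17.6% of the 13657 genes had one. No H3K27me3 domain lay within 1 kb in wildtype, where 24.6% of all genes had one. The nearest was 14839 bp from the strongest ZBTB11 event at Ccdc57 and 247279 bp away at Mtbp.

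In Zbtb11KO an H3K27me3 domain covered the strongest ZBTB11 event at each of the 10 genes. The domain over the event held 1018 reads at Vti1a and Zdhhc6, 714 at Mtbp, 449 at Ccdc57, 388 at Acbd6, 380 at Taco1, 349 at Slc4a1ap, 300 at Adat2 and Pex3 and 250 at Zfp11. Domains were 713 bp (Zfp11) to 2811 bp (Vti1a and Zdhhc6) long. In Zfp131KO, as in wildtype, no domain was listed within 1 kb. The lists pool the replicates, so no value per library can be given for any member.

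**Figure D1:**
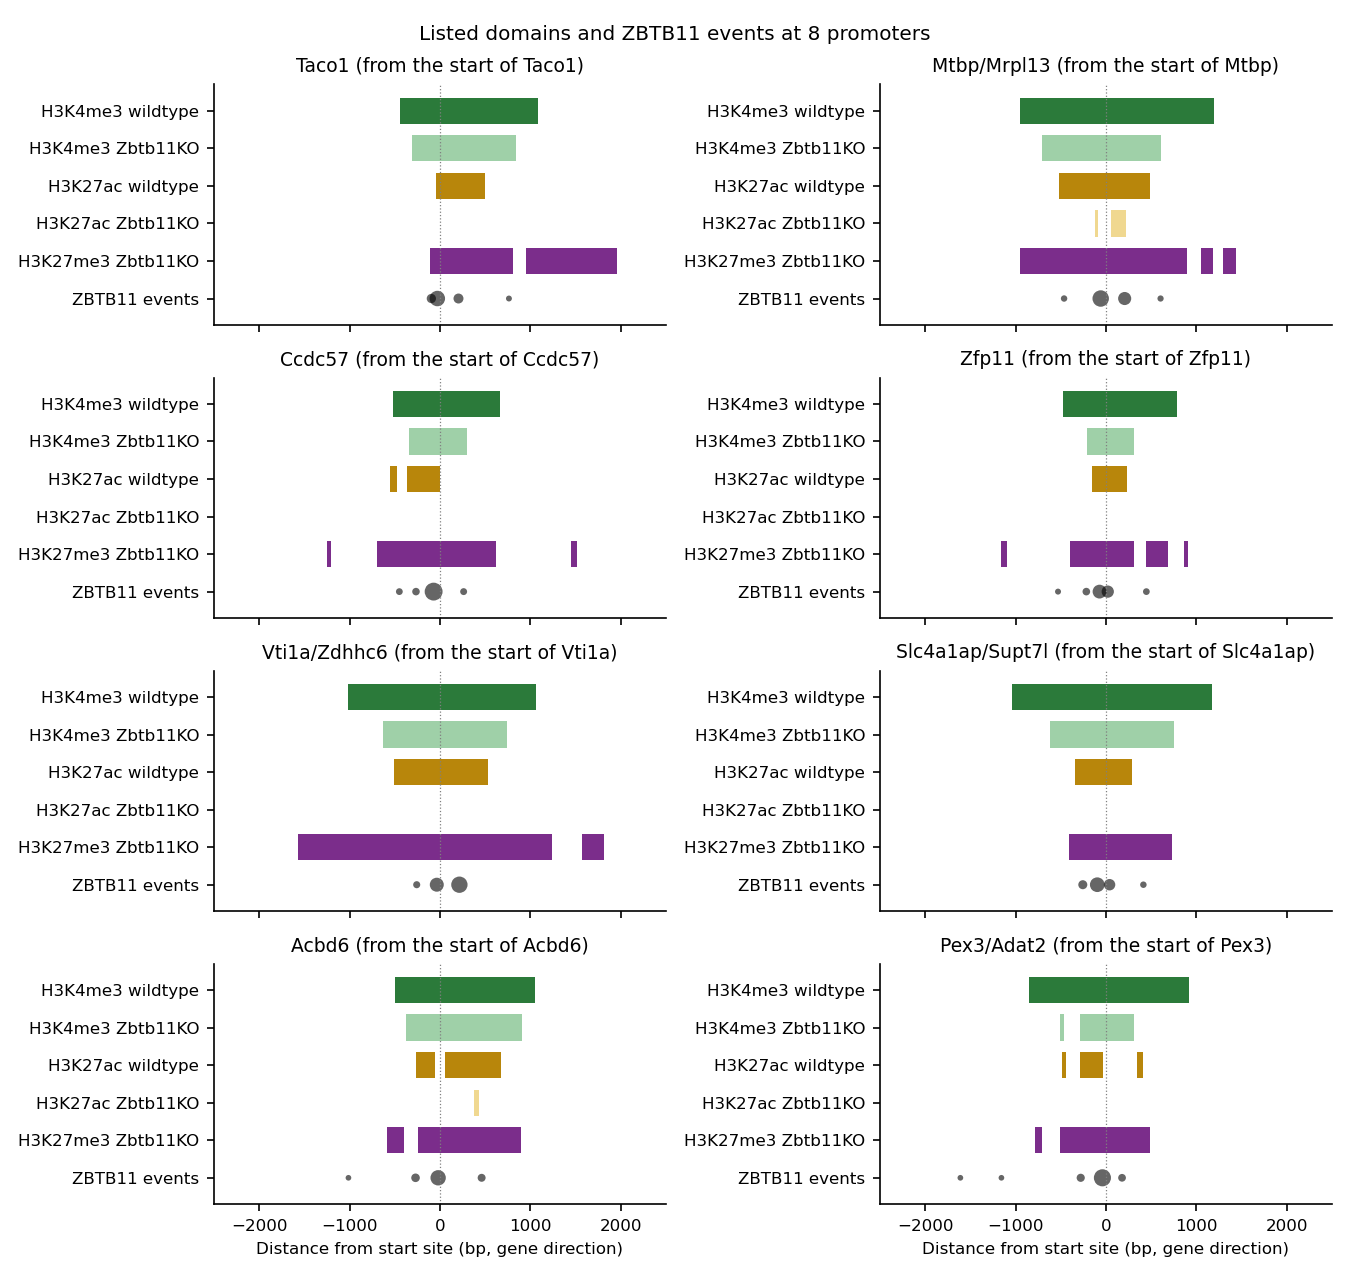
Listed H3K4me3, H3K27ac and H3K27me3 domains (bars) and ZBTB11-HA events (dots, area growing with reads) at the 8 promoters, against the distance in bp from the start site in the direction of the named gene (for Mtbp, from its first base along the chromosome). In each panel the Zbtb11KO H3K27me3 bar spans the strongest ZBTB11 event, the H3K4me3 bar remains, and H3K27ac bars of Zbtb11KO appear only at Acbd6 and Mtbp.

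The values that chose the genes were as follows. By the region of highest mean signal within 1 kb, the authors' deposited table gave log2 fold changes of Zbtb11KO over wildtype from 2.17 (SE 0.63, Adat2 and Pex3) to 4.64 (SE 0.57, Mtbp), and all 10 were called higher at an adjusted p under 0.05, where 6.46% of 6359 genes with a region were. At Zfp11 and at Adat2 and Pex3 that region was a small piece beside the domain, and the region over the strongest ZBTB11 event gave 4.41 (SE 0.54) and 4.16 (SE 0.60) by the authors' deposited table. Taco1 had 3.42 (SE 0.42), Ccdc57 3.23 (SE 0.44), Vti1a and Zdhhc6 3.26 (SE 0.45), Acbd6 3.49 (SE 0.49) and Slc4a1ap 4.18 (SE 0.61) by the authors' deposited table. The mean signal of the regions used, over both genotypes, was 82.1 to 135.5, below the median over genes of 186.0. That mean did not follow the listed reads: at Zfp11 it was 130.5 for a piece of 50 bp with 16 reads and 95.3 for the domain of 250 reads. By listed reads in Zbtb11KO, the 10 genes stood at the 87.5 (Adat2 and Pex3) to 95.3 percentile (Vti1a and Zdhhc6) of all genes, of which 26.9% had a domain. In Zfp131KO no region of the authors' deposited H3K27me3 table lay within 1 kb of any of the 10, so none could be called (over all genes, 9.95% of 6570 with a region were called higher). The comparisons with Zbtb11KO and with Zfp131KO share the wildtype libraries, and the difference between the knockouts was not tested.

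H3K27ac, which the stated reason for the choice does not name, was lower in Zbtb11KO at all 10 genes. The genes were chosen with earlier results of these data known, so their H3K27ac cannot be taken as independent of the choice. Reads in listed domains in wildtype, Zbtb11KO and Zfp131KO in turn were 137, none and 85 at Taco1. They were 289, none and 197 at Vti1a and Zdhhc6. At Slc4a1ap they were 251, none and 243. Zbtb11KO kept a listed domain only at the promoters of Acbd6 and Mtbp. There the reads in the same order were 233, 11 and 182 for Acbd6 and 386, 51 and 292 for Mtbp. Zfp11 had 93, none and 73 reads, and Adat2 and Pex3 had 86, none and 111. Ccdc57 had 1634 wildtype reads over both ends, of which the promoter domains held 133 and 15, and Zfp131KO kept 78. The Zbtb11KO lists were therefore below both other genotypes at each promoter. Of 8372 genes with at least 50 wildtype reads, 93.4% still had a listed domain in Zbtb11KO, against 2 of the 10 members. In Zfp131KO 95.3% of these genes and all 10 members had one. Over genes listed in both, the median log2 ratio of reads to wildtype was -0.37 in Zbtb11KO and -0.28 in Zfp131KO, not scaled for depth.

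The authors' deposited H3K27ac table called 10 of 10 genes (8 of 8 promoters) lower in Zbtb11KO at an adjusted p under 0.05, where 9.94% of 10494 genes with a region were. The median log2 fold change was -1.84 over the 10 genes and -0.13 over all genes. Zfp11 fell by 2.11 on the log2 scale (SE 0.40, adjusted p = 4.74e-06 by the authors' deposited table). Adat2 and Pex3 fell by 1.93 (SE 0.36, adjusted p = 3.55e-06), and Vti1a and Zdhhc6 fell by 1.91 (SE 0.37, adjusted p = 6.47e-06), by the authors' deposited table. The smallest promoter fall was that of Acbd6, at -1.15 (SE 0.33, adjusted p = 0.00371) by the authors' deposited table. At Acbd6 that region lay beside the strongest ZBTB11 event, and the region nearest the event was at -1.32 (SE 0.64) with an adjusted p of 0.109 by the authors' deposited table, which did not pass. For Ccdc57 the region of highest signal, at -0.91 (SE 0.27), lay at the far end of the gene, and its promoter region fell by 2.60 (SE 0.52, adjusted p = 1.91e-05) by the authors' deposited table.

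In Zfp131KO, 1 of 10 genes was called lower for H3K27ac in the authors' deposited table, where 11.1% of 10571 genes were. This was Ccdc57 at -0.75 (SE 0.24, adjusted p = 0.0105) by the authors' deposited table, again at its far end. Its promoter region was at -0.54 (SE 0.34, adjusted p = 0.226) by the authors' deposited table, so that at the promoter the call ended. The other 9 genes ranged from -0.35 (Vti1a and Zdhhc6) to 1.10 (Slc4a1ap, SE 0.46, adjusted p = 0.0539) by the authors' deposited table, and none of them passed. At Slc4a1ap that value came from a region of 40 bp, and the region over the strongest ZBTB11 event was at -0.15 (SE 0.34) by the authors' deposited table.

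**Figure D2:**
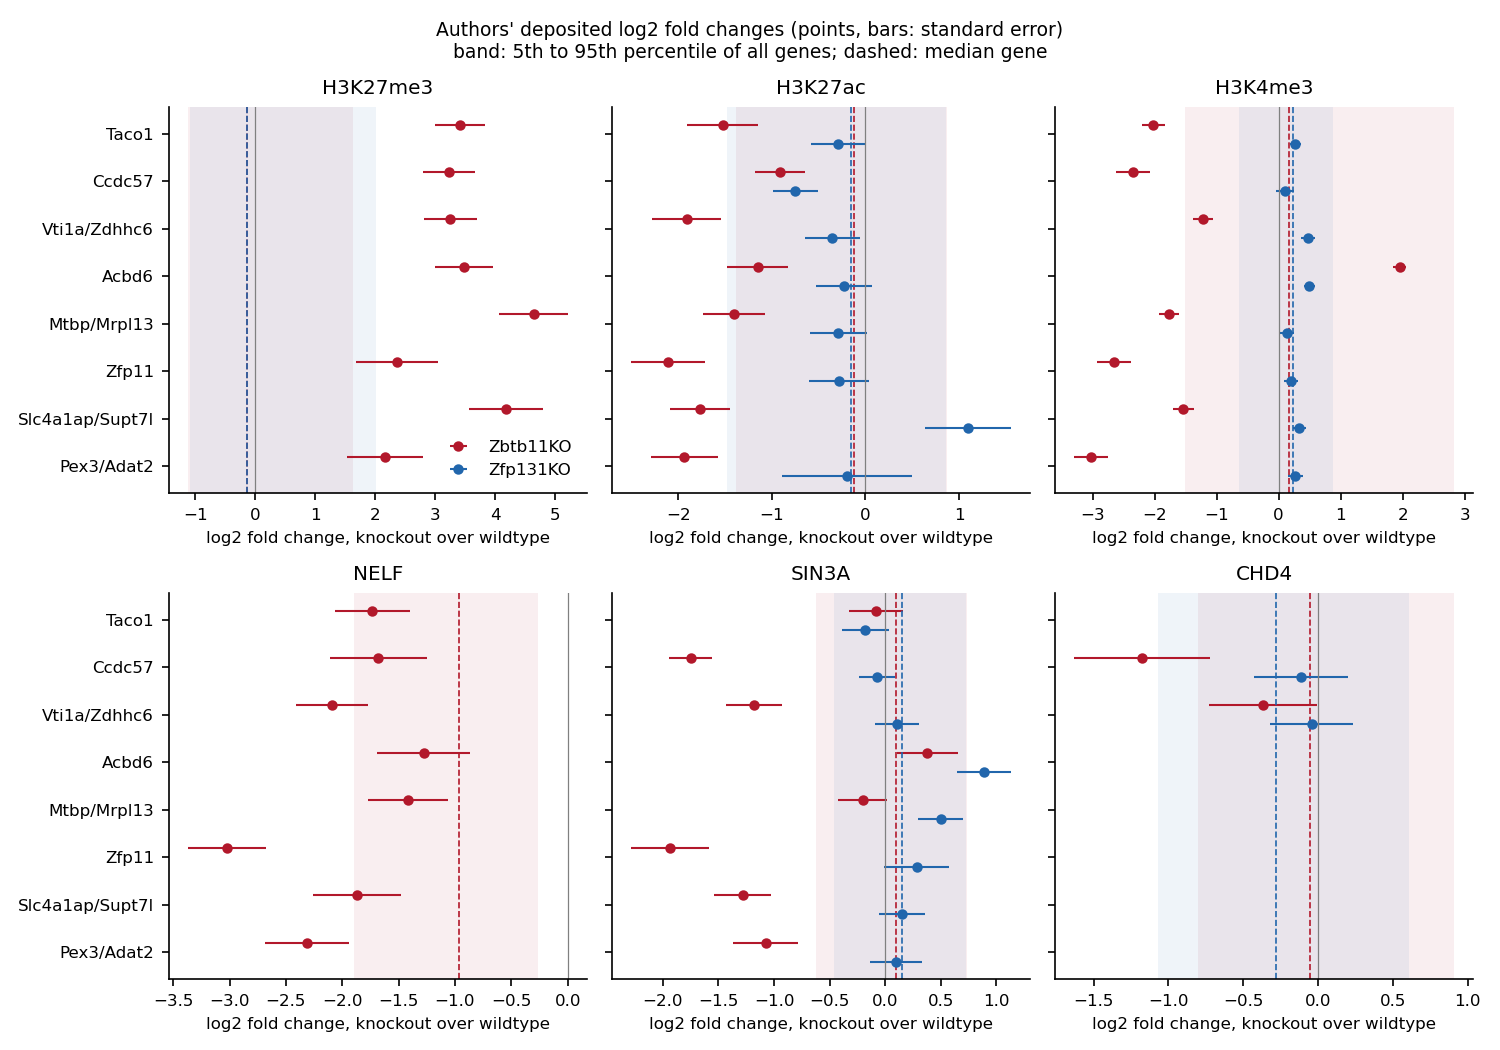
Log2 fold changes of each knockout over wildtype in the authors' deposited tables (x axis) for the 8 promoters (y axis), using for each gene the region of highest mean signal within 1 kb, with bars for the standard error, shading for the 5th to 95th percentile over all genes and dashed lines for the median gene. Zbtb11KO points of H3K27ac lie at -0.91 or lower, Acbd6 stands apart for H3K4me3 at 1.95, no NELF table of Zfp131KO was used, and CHD4 has regions at 2 promoters; the H3K27ac points of Ccdc57 are for its far end.

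H3K4me3 domains were listed at every promoter in all 4 genotypes, with fewer reads in Zbtb11KO than in wildtype at each and with reads near wildtype in Zfp131KO. In the authors' deposited table the difference in Zbtb11KO passed as lower at 7 of 8 promoters and Acbd6 was the exception. Ccdc57 had 1472 reads in wildtype domains, 185 in Zbtb11KO, 1242 in Zfp131KO and 321 where both factors were deleted. Zfp11 had 1722, 223, 1584 and 676 in the same order, and Adat2 and Pex3 had 2160, 292, 2046 and 651. These promoters lost most, and stayed low in the double knockout.
Mtbp had 4007, 1089, 3432 and 2900 reads, Slc4a1ap 3468, 983, 3355 and 3263, Taco1 2932, 944, 2729 and 2899, and Vti1a and Zdhhc6 3450, 1356, 3717 and 3492. Here Zbtb11KO alone was far below the others in reads as listed. Acbd6 had 3119, 2484, 3406 and 2570 reads, the smallest difference of the 8 promoters.

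The domain lists give no library totals, so reads were also set against the median gene listed in both genotypes. For this the median gene had a log2 ratio to wildtype of -0.43 for Zbtb11KO, -0.11 for Zfp131KO and 0.72 for the double knockout. Relative to it, the members' log2 ratios had a median of -1.42 in Zbtb11KO (-2.57 at Ccdc57 to 0.10 at Acbd6), 0.03 in Zfp131KO (-0.14 to 0.23) and -1.09 in the double knockout (-2.92 at Ccdc57 to -0.70 at Vti1a and Zdhhc6). The double knockout thus kept 47.0% of the wildtype reads by this scaling and 77.4% as listed, so the size of the difference there depends on the scaling. On the relative scale each of the 8 promoters was below the median gene in the double knockout, Acbd6 included, and these list values have no test.

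**Figure D3:**
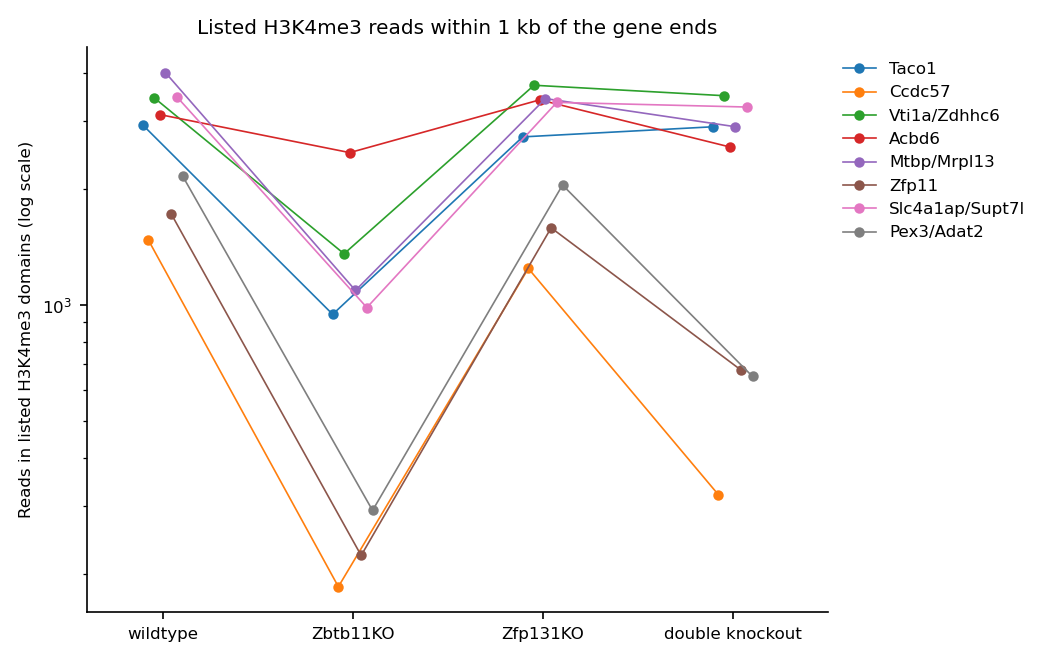
Reads in listed H3K4me3 domains within 1 kb of the gene ends (log axis, not scaled for depth) in the pooled list of each genotype, with 1 line per promoter. Ccdc57, Zfp11 and the Pex3/Adat2 promoter fall to 185, 223 and 292 reads in Zbtb11KO and are at 321, 676 and 651 in the double knockout, while Acbd6 changes least.

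The authors' deposited H3K4me3 table of Zbtb11KO called 9 of 10 genes (7 of 8 promoters) lower, where 24.5% of 14238 genes were. The largest falls in the authors' deposited table were those of Adat2 and Pex3 (log2 fold change -3.03, SE 0.27, adjusted p = 2.1e-28), Zfp11 (-2.66, SE 0.27, adjusted p = 2.12e-21) and Ccdc57 (-2.35, SE 0.28, adjusted p = 5.74e-16). Within 2 kb of the ends of Ccdc57 a region of higher signal, other than that of its promoter, was called higher at 1.90 in the authors' deposited table, so the direction for Ccdc57 holds for the promoter region. Acbd6 was called higher within 1 kb, at 1.95 (SE 0.10, adjusted p = 3.06e-76). Its listed reads went the other way or, relative to the median gene, differed by 0.10 on the log2 scale. The deposited fold changes of this table run wide: over 13478 genes their 5th to 95th percentiles were -1.30 to 2.83, where the log2 ratios of listed reads ran from -1.38 to 0.55. The table is therefore read by rank, and Acbd6 stood at its 84.1 percentile against the 57.6 percentile by listed reads. In Zfp131KO, 5 of 10 genes were called higher for H3K4me3 in the authors' deposited table, where 33.5% of 14277 genes were, and the members' median of 0.27 was close to that of all genes, 0.24. Those called were Acbd6 (0.50, SE 0.09), Vti1a and Zdhhc6 (0.47, SE 0.11), Slc4a1ap (0.33, SE 0.10) and Taco1 (0.27, SE 0.09), by the authors' deposited table.

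NELF reads were lower in Zbtb11KO at all promoters, in cells in which NELF reads were lower at most genes. In RPM (event reads over the total reads in M), Zfp11 had 16.6 in wildtype, 2.96 in Zbtb11KO and 11.4 in Zfp131KO, with no event listed in the double knockout. Adat2 and Pex3 had 10.9, 2.06 and 7.29, again with none in the double knockout. Vti1a and Zdhhc6, the highest, had 26.8, 8.75, 24.8 and, in the double knockout, 2.70. Zfp11 and the promoter of Adat2 and Pex3 thus kept least of their wildtype reads in Zbtb11KO.
Taco1 had 10.98, 3.76 and 6.95, Slc4a1ap 10.9, 3.62 and 7.15, and Mtbp 13.1, 4.05 and 8.79 in wildtype, Zbtb11KO and Zfp131KO. Ccdc57 had 5.60, 1.23 and 3.46. Acbd6 had 8.13, 2.39 and 5.08, and 1.07 in the double knockout. Events in the double knockout were listed at 3 of 10 genes (2 of 8 promoters), where 49.2% of 12909 genes with at least 50 wildtype reads still had one.

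As a share of wildtype the members' median was 30.2% in Zbtb11KO (17.8% at Zfp11 to 34.3% at Taco1) and 67.0% in Zfp131KO (61.8% to 92.5%). Set against the median gene instead of the totals, it was 56.8% in Zbtb11KO and 111% in Zfp131KO, which turns the direction in Zfp131KO. The authors' deposited NELF table called 10 of 10 genes (8 of 8 promoters) lower in Zbtb11KO, where 55.3% of 13321 genes were and the median gene was at -0.97. Zfp11 was at -3.02 (SE 0.35, adjusted p = 1.83e-13) and Adat2 and Pex3 at -2.31 (SE 0.37, adjusted p = 2.71e-07) by the authors' deposited table, at the 0.17 and 1.29 percentiles of genes. Acbd6 had the smallest value, -1.28 (SE 0.41, adjusted p = 0.00931), by the authors' deposited table. With fold changes centred on the median of the table, 1 of 10 stayed called, Zfp11 at -1.99 (adjusted p = 5.8e-05 from the deposited standard errors), while Vti1a and Zdhhc6 (-1.05, adjusted p = 0.0938) and Adat2 and Pex3 (-1.27, adjusted p = 0.0766) did not pass. Only 1 replicate stands in the header of the wildtype NELF list, with 23.1% of its reads in events. That share was 9.8% for Zbtb11KO, 11.4% for Zfp131KO and 5.1% for the double knockout. The part of this difference in the falls was not tested.

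**Figure D4:**
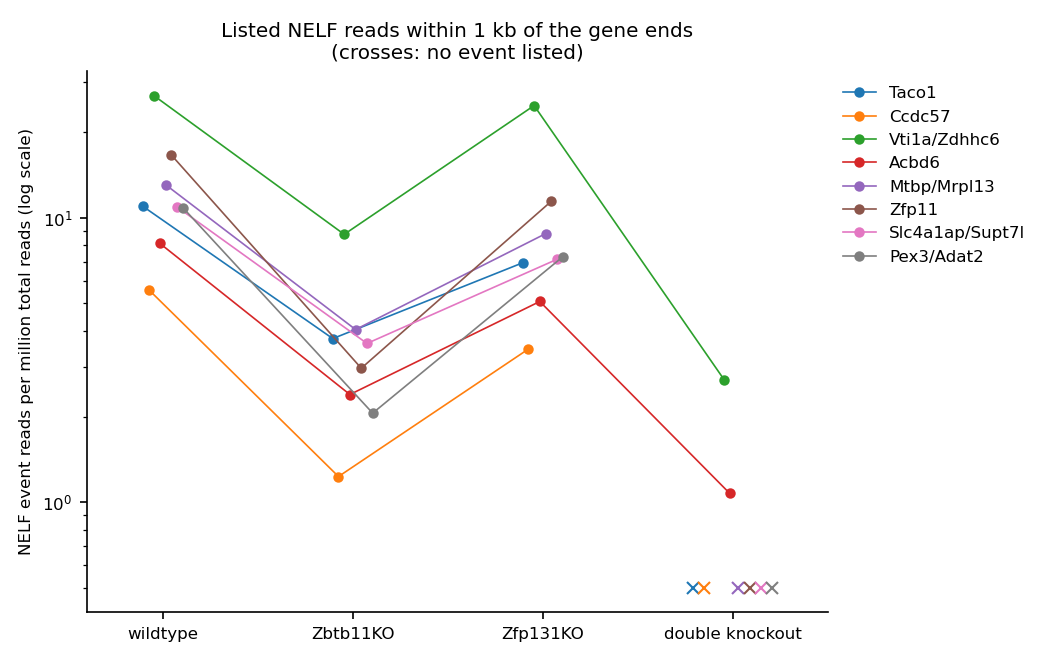
Reads of listed NELF events within 1 kb of the gene ends in RPM (log axis) in the pooled list of each genotype, with 1 line per promoter and crosses, drawn at an arbitrary height, where no event was listed. All lines dip in Zbtb11KO, and in the double knockout only Vti1a/Zdhhc6 and Acbd6 have an event, at 2.70 and 1.07.

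SIN3A divided the promoters. The authors' deposited table called 7 of 10 genes (5 of 8 promoters) lower in Zbtb11KO, where 2.33% of 13766 genes were. Zfp11 had 161.6 reads in wildtype events and none listed in Zbtb11KO, and it fell by 1.94 on the log2 scale (SE 0.35, adjusted p = 1.53e-05) by the authors' deposited table. Ccdc57 went from 750.0 reads to 186.6 over both gene ends. Its promoter events held 502.1 and 94.6 of these reads in wildtype and 133.4 in Zbtb11KO. The promoter region of Ccdc57 fell by 1.75 (SE 0.19, adjusted p = 1.02e-15) by the authors' deposited table.
Slc4a1ap went from 367.8 reads to 143.4 (log2 fold change -1.28, SE 0.26, adjusted p = 0.000119), Vti1a and Zdhhc6 from 499.6 to 189.4 (-1.18, SE 0.25, adjusted p = 0.000392) and Adat2 and Pex3 from 255.9 to 83.6 (-1.07, SE 0.29, adjusted p = 0.00946) by the authors' deposited table. Taco1 (462.9 to 273.8 reads, log2 fold change -0.09, SE 0.24), Mtbp (398.0 to 252.0 reads, -0.20, SE 0.22) and Acbd6 (195.5 to 179.8 reads, 0.38, SE 0.28) did not pass in the authors' deposited table. A p that misses the threshold does not show that SIN3A was the same there. In Zfp131KO, 1 of 10 genes was called higher for SIN3A, where 5.62% of 12866 genes were: Acbd6 at 0.89 (SE 0.24, adjusted p = 0.0116) by the authors' deposited table.

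CHD4 had regions at 3 of 10 genes, where 3144 of 21887 protein-coding genes had one in the Zbtb11KO comparison and 3909 in that of Zfp131KO. None was called lower in Zbtb11KO, where 0.636% of 3144 genes were: Ccdc57, with 69.6 wildtype reads and no event listed in Zbtb11KO, was at -1.17 (SE 0.45, adjusted p = 0.0699), and Vti1a and Zdhhc6 (160.9 to 70.0 reads) were at -0.37 (SE 0.36, adjusted p = 0.596) by the authors' deposited table. By the region of highest mean signal none was called lower in Zfp131KO either, where 6.09% of 3909 genes were, with -0.11 (SE 0.31) at Ccdc57 and -0.04 (SE 0.28) at Vti1a and Zdhhc6 in the authors' deposited table. The promoter of Vti1a and Zdhhc6 held another CHD4 region, over both starts, which was called lower in Zfp131KO at -0.96 (SE 0.36, adjusted p = 0.0447) by the authors' deposited table, so that the call there depends on the region taken.

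Strong ZBTB11 binding and H3K27me3 gain overlapped only in part. Over all genes, 411 (6.46% of 6359 with a region) were called higher for H3K27me3 in Zbtb11KO in the authors' deposited table. Of these, 185 had a ZBTB11 event within 1 kb and 226 had none. Such an event was listed at 35.9% of all genes and at 56.5% of the 13657 genes with wildtype H3K4me3. Of 243 genes with at least the 2775.2 ZBTB11 reads of Acbd6, 38 (15.6%) were called higher for H3K27me3 in Zbtb11KO in the authors' deposited table. The 243 were counted with or without an H3K27me3 region, and the like count over all 21887 protein-coding genes was 411. Of the 38, 10 are the genes described, whose lowest reads set the limit. The other 28 had H3K27ac called lower at 21 (75.0%) with a median log2 fold change of -1.40, by the authors' deposited table. Of 205 genes as strongly bound and not called higher for H3K27me3, 203 had an H3K27ac region and 46 (22.7%) were called lower in the authors' deposited table. Of the 226 genes with a gain and no ZBTB11 event, 72 had an H3K27ac region and 20 (27.8%) were called lower, where 9.94% of all genes were. These are counts over genes that share promoters and libraries, and they were not tested.

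Other genes with an event and a gain were sought by the largest log2 fold change among those called higher, with a ZBTB11 event within 1 kb and a mean signal no lower than that of the median gene. The 10 were 1700025G04Rik, Gls2, N4bp3, Creld1, Gmds, Rnf6, Thrsp, Klhl41, Nectin4 and Rnf220, with log2 fold changes of 2.19 down to 1.63 in the authors' deposited table. That limit on signal left out the members themselves, so these genes are the nearest only among regions of higher signal. Their regions of highest signal were 23 to 48 bp long, their ZBTB11 reads had a median of 55.4, 4 of 10 had a wildtype H3K27me3 domain, and 4 of 9 with a region were called higher in Zfp131KO too in the authors' deposited table. Of 7 with an H3K27ac region, 1700025G04Rik (-1.51, SE 0.49, adjusted p = 0.0126) and Rnf6 (-1.66, SE 0.35, adjusted p = 5.83e-05) were called lower in Zbtb11KO in the authors' deposited table. Rnf6, a ubiquitin ligase gene, had 2521.8 ZBTB11 reads and no ZFP131 event, and its H3K4me3 fell by 0.97 (SE 0.18, adjusted p = 6.54e-07) by the authors' deposited table, while its SIN3A was at -0.03 (SE 0.27).

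Genes named for the same change in Zfp131KO had the factors the other way round. Ddx51 and Noc4l, which share a promoter, had 3206.3 ZFP131 reads against 129.2 ZBTB11 reads, and Nup214, a nuclear pore gene, had 2575.1 against 124.6. H3K27ac of Ddx51 and Noc4l was at -2.49 (SE 0.39, adjusted p = 2.28e-08) in Zfp131KO and -0.27 (SE 0.29, adjusted p = 0.533) in Zbtb11KO, by the authors' deposited tables. For Nup214 it was at -2.07 (SE 0.37, adjusted p = 9.89e-07) and then 0.04 (SE 0.31, adjusted p = 0.935), by the authors' deposited tables. No H3K27me3 region of the authors' deposited Zbtb11KO table lay within 1 kb of Ddx51, Noc4l, Nup214, Scfd2, Rrp1b or Dxo. These genes too were chosen on H3K27me3 and, as ZFP131 targets, may have been chosen on its binding as well. Their ZFP131 and ZBTB11 reads therefore describe that choice, and the difference between the sets was not tested.

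Too few functional relatives of the members had an H3K27me3 region for their count to say much. Of 73 genes of the peroxisome, tRNA deaminase, palmitoyltransferase, acyl-CoA binding, SNARE and cytochrome c oxidase assembly lists, 43 had a ZBTB11 event, where 35.9% of all genes did. An H3K27me3 region lay at 12, and none of these was called in either direction in Zbtb11KO in the authors' deposited table, where 6.46% of all genes with a region were called higher. For 3 SNARE genes with a region the median log2 fold change was 1.90 in the authors' deposited table, with no call. Of 61 with an H3K27ac region, 4 were called lower, where 9.94% of all genes were, and 1 higher, with a median log2 fold change of -0.06 in the authors' deposited table. The SNARE gene Stx16, with 3205.7 ZBTB11 reads, was among the 4 at -1.33 (SE 0.43, adjusted p = 0.0117) by the authors' deposited table. Pex19, a peroxisome import factor gene, was at -0.84 (SE 0.27, adjusted p = 0.0115), and Vamp8 and Zdhhc18 were at -1.13 and -1.64, in the authors' deposited table, and none of these 3 had a ZBTB11 event.

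The label of embryonic stem cells was checked on promoters. Of 8 markers of these cells, 7 had an H3K27ac domain within 1 kb in each of wildtype, Zbtb11KO and Zfp131KO, Esrrb being without one in each. None of 5 fibroblast markers had one, and 1 of 5 primitive endoderm markers had one in wildtype and Zfp131KO and none in Zbtb11KO. Likewise 1 of 4 trophectoderm markers and 1 of 4 neural markers had one in wildtype and in Zfp131KO, and none in Zbtb11KO. The event lists used rest on 24.0 M to 71.6 M reads, and for NELF in the double knockout the replicates had 2.7% and 8.0% of reads in events. At Zfp131, H3K4me3 in Zfp131KO was at 0.24 (SE 0.11, adjusted p = 0.105) by the authors' deposited table, and no region used here lay within 1 kb of Zbtb11, so the marks at these genes did not check the deletions. Fewer cells with a mark and less of it per cell cannot be told apart in bulk chromatin.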

How the data were processed

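Bowtie 1.0.1, bedtools, DESeq2 1.28.1 and mm10 are named in the submitters' processing notes. Per the file headers, the authors' event lists give a signal (reads assigned to an event, replicates summed), a log2 fold over control and a score that is a log2 p-value. Per the file headers, each domain of the authors' lists has a count of reads, pooled over replicates, and a p-value. The authors' deposited DESeq2 tables give a mean signal, log2 fold change, standard error and adjusted p per region, with fold changes positive where the knockout is higher. Regions came from the lists of either genotype, and some joined overlapping items of both. No file holds values per region and library, so no model was refitted.

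RefSeq (GRCm38.p6) gave the gene ends. A gene took, within 1 kb of either end, all listed items and the table region of highest mean signal, called at an adjusted p under 0.05 of DESeq2. The matching was tested on simulated regions. The deposited NELF tables were copies of each other. Since 77.5% of Zbtb11KO events and 3.35% of Zfp131KO events marked an edge of their regions, they served Zbtb11KO alone. The SIN3A and CHD4 events of Zfp131KO were identical too, and SIN3A events of Zfp131KO were not used. Ratios of listed reads needed at least 50 wildtype reads.

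Members, lists and motifs were chosen with earlier results of these data known. Genes named are the members, genes sharing their promoters, the 10 with the largest H3K27me3 gain among ZBTB11-bound genes whose mean signal was at or above the median gene's, the 6 named for Zfp131KO, and relatives called in a table. CGGAAC and GGAAC were chosen after the sequences were seen. Python 3 with pandas and NumPy was used.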

Additional observations from a re-analysis of the deposited data

How the results depend on the processing

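No paired analysis was possible because the files hold no value per region and library; for the same reason neither a replicate block nor leaving out a replicate was run. The windows (500 bp, 2 kb), the region of smallest adjusted p, the start end alone, an adjusted p under 0.01 and centring were chosen with the main rule, and the region at the strongest ZBTB11 event after seeing the data. The counts of members called were within 1.5 times the reported count in all these settings for H3K27me3 in both knockouts, H3K27ac, H3K4me3 and SIN3A in Zbtb11KO, H3K4me3 in Zfp131KO and CHD4 in Zbtb11KO. The exceptions were NELF in Zbtb11KO, 1 of 10 when centred, H3K27ac in Zfp131KO, 0 of 10 at 500 bp, at the start end, at 0.01 and at the ZBTB11 event, SIN3A in Zfp131KO, 0 at 0.01, and CHD4 in Zfp131KO, 1 within 2 kb (Ccdc57, -0.73) and 2 by smallest adjusted p (Vti1a and Zdhhc6, -0.96). Among the counts that held, H3K27me3 in Zbtb11KO chose the genes. H3K27me3 in Zfp131KO and CHD4 in Zbtb11KO had a reported count of 0, so that their holding says little. Within 2 kb, Ccdc57 took another H3K4me3 region, called higher in Zbtb11KO at 1.90. Listed at p under 1e-05, ZFP131 events remained at 2 genes and Zbtb11KO H3K27ac domains at 1. Within 2 kb, 1 Zfp131KO H3K27me3 domain of 15 reads appeared at the far end of Vti1a. Listed NELF reads as a share of wildtype were 56.8% (Zbtb11KO), 111% (Zfp131KO) and 34.1% (double knockout) when set against the median gene, and 11.9% in the double knockout as listed, against 10.1% scaled by totals; the shares for the double knockout cover only the 3 of 10 genes with an event there (Vti1a, Zdhhc6 and Acbd6). H3K4me3 reads in the double knockout were 77.4% as listed. The causes of these shifts were not tested. An unlisted item is below the authors' threshold at the pooled depth, not shown to be absent.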
